A study of Mus musculus with 16 samples.

Results

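The genes described here carry the signal of leukemia inhibitory factor (LIF) from the cell surface to the nucleus in mouse stem cells: Lifr and Il6st, the chains of the receptor, Jak1, a kinase bound to them, Stat3, the transcription factor they activate, and Socs3, Pim1 and Pim3, which Stat3 induces. They were chosen as the probes on the array whose gene name is 1 of these 7 symbols, among 28095 gene names. This gave 14 of the 41174 probes: 5 for Lifr, 3 for Jak1, 2 for Pim1 and 1 each for Il6st, Stat3, Socs3 and Pim3. All 14 were among the 31415 probes tested, which were those that stood clearly over background on 1 array or more, and 11 of them did so on all 16 arrays.

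LIF brings Lifr and Il6st (also called gp130) together, and the Jak kinases held by both chains phosphorylate docking sites for Stat3, which then enters the nucleus as a dimer. In mouse embryonic stem (ES) cells this route holds the undifferentiated state, in part through the transcription factors Klf4, Tfcp2l1, Gbx2 and Klf5. Socs3 binds the receptor and shuts the signal off, and the Pim kinases are serine/threonine kinases that promote survival and growth.

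The study made induced pluripotent stem (iPS) cells from mouse embryonic fibroblasts (MEFs) with human artificial chromosome vectors, which stay apart from the mouse chromosomes, and compared their gene expression with that of ES cells, MEFs and retroviral iPS cells. Each of 16 samples was hybridized to 1 Agilent 1-colour array. The vector iHAC1 carries 2 copies each of Klf4, c-Myc, Sox2 and Oct4 cDNAs, all driven by the CAG promoter. The vector iHAC2 carries these and 2 more copies of Oct4, and a short hairpin RNA that lowers p53. The clones 1-A3, 1-B, 1-C3 and 1-D6 make up the iHAC1-iPS group, and 2-B1, 2-C6, 2-E and 2-N the iHAC2-iPS group. MEFs were given microRNA mimics after vector transfer, though not stated clone by clone. The iHAC-free iPS group holds 4 lines, sorted as cells without the vector's EGFP signal, of which F-B1 came from 2-B1, F-C5 from 2-C6, F-E4 from 2-E and F-N7 from 2-N, and values of a group are given in this order of clones and lines. The ES group held B6ES and TT2. MEFs and the retroviral iPS line 20D17 had 1 array each and enter no test. TT2 has a C57BL/6 x CBA background and 20D17 a C57BL/6 x DBA background, and all other samples are C57BL/6. The ES cells and the clones were kept on feeder layers of MEFs whose division had been stopped, in medium with added LIF, so LIF was supplied from outside in every ES, iHAC1-iPS, iHAC2-iPS and iHAC-free iPS culture. The study describes the medium of the MEFs as one with serum and names no LIF in it. The culture of 20D17 is not given in the sources used here. Replicates are separate clones or lines with 1 array each.

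Levels are given as log2 of the processed signal minus the 75th percentile of the array, so that 0 is the level of that percentile and 1 unit is a 2-fold step. Because probes differ in how they bind, levels are compared between arrays for 1 probe and not between probes. Across the arrays, the share of spots well above background was 54.2% to 65.8%, and no spot was saturated. The share was 54.2% to 59.9% in the iHAC2-iPS clones, 59.4% to 63.0% in the iHAC-free iPS lines and 61.7% or more on all other arrays. The MEF, ES, 20D17 and iHAC1-iPS arrays were scanned in 1 session and the iHAC2-iPS and iHAC-free iPS arrays in another, with another version of the scanner software. The comparisons of iHAC1-iPS with ES and of iHAC2-iPS with iHAC-free iPS therefore lie within a session. In the other 4 comparisons, the session cannot be told apart from the group.

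The cultures differed in marker genes of their cell types. Of 10 pluripotency markers listed, 9 were measured. Their mean level was 3.75 in B6ES, 4.03 in TT2 and between 3.62 and 3.75 in the iHAC-free iPS lines. It was between 1.91 and 4.11 in the iHAC2-iPS clones, between -2.73 and -0.35 in the iHAC1-iPS clones and -4.89 in MEFs. These markers include Pou5f1 (Oct4) and Sox2, which the vectors carry, and Pou5f1 ran the other way, at 6.55 ± 0.16 (SD, n = 4) in iHAC1-iPS, 4.93 ± 1.08 (n = 4) in iHAC2-iPS, 3.78 ± 0.31 (n = 2) in ES and 2.56 ± 0.15 (n = 4) in iHAC-free iPS. Whether its probe reads the vector's copies was not tested. All 20 fibroblast markers, which also mark the feeder cells, were well above background on every array. Their mean level was 3.70 in MEFs, 0.83 in B6ES and 2.15 in TT2. It was 2.47 to 3.39 in the iHAC1-iPS clones, 1.37 to 2.94 in the iHAC2-iPS clones, 2.13 to 2.87 in the iHAC-free iPS lines and 2.83 in 20D17. Thy1 ran the other way, at 3.54 in MEFs, the lowest of all arrays, and 6.07 ± 0.45 (SD, n = 4) in iHAC1-iPS. Fn1, Fbln2, Col6a1 and Col6a2 were also lower in MEFs than the iHAC1-iPS mean, and the rest of the list was higher in MEFs. In bulk RNA, fewer cells of a type and less RNA per cell cannot be told apart, and the part of feeder cells in the values below was not tested.

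The probe sequences show which stretch and strand of each transcript was read. Of the 14 probes, 12 lie on the strand of their gene. The Jak1 probe A_52_P577180 and the Pim1 probe A_52_P535619 lie on the opposite strand, and both were dim, well above background on 12 of the 16 arrays. The letters of both Pim1 probes are shown because only A_52_P530291 lies on the strand of the gene. That probe lies at chr17:29630740-29630799 on the plus strand and the other at chr17:29628627-29628686 on the minus strand, both on build mm9 as the files give it.
Pim1 A_52_P530291: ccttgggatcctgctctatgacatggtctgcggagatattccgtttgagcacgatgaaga
Pim1 A_52_P535619: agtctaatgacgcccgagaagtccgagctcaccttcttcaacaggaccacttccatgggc
The 5 Lifr probes all lie on the plus strand of chromosome 15 and start at bases 2158, 2324, 3232, 3323 and 7563 of the transcript. The first, at chr15:7134761-7135567, covers a longer stretch of the genome than its 60 bases. The second, at chr15:7135674-7135733, reads the next stretch of the same transcript. These 2 are shown because they read neighbouring stretches, yet ranked the iHAC2-iPS clones differently.
Lifr A_52_P579352: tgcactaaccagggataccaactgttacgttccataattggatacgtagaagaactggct
Lifr A_52_P192699: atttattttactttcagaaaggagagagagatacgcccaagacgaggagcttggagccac

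Stat dimers bind the palindrome TTCNNNGAA, which reads alike on both strands. It was searched in the promoter windows that RefSeq gives for the 7 genes on GRCm38.p6, from 250 bases before the start of transcription to 50 after it. These are 9 windows, as Lifr and Pim1 have 2 each. Only the Socs3 window held it, 154 bases before the start, whereas 2726 of all 32851 promoter windows (8.30%) held it. The 250 bases before the Socs3 start, at chr11:117969367-117969616 on the minus strand, are shown with the match in capitals. A match is a description of letters and not evidence of binding.
Socs3 promoter: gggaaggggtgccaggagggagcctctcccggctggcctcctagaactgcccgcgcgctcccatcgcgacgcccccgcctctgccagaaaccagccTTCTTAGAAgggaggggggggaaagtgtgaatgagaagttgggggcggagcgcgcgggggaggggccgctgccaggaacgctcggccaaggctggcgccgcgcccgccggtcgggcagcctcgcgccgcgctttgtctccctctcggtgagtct

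**Figure D1:**
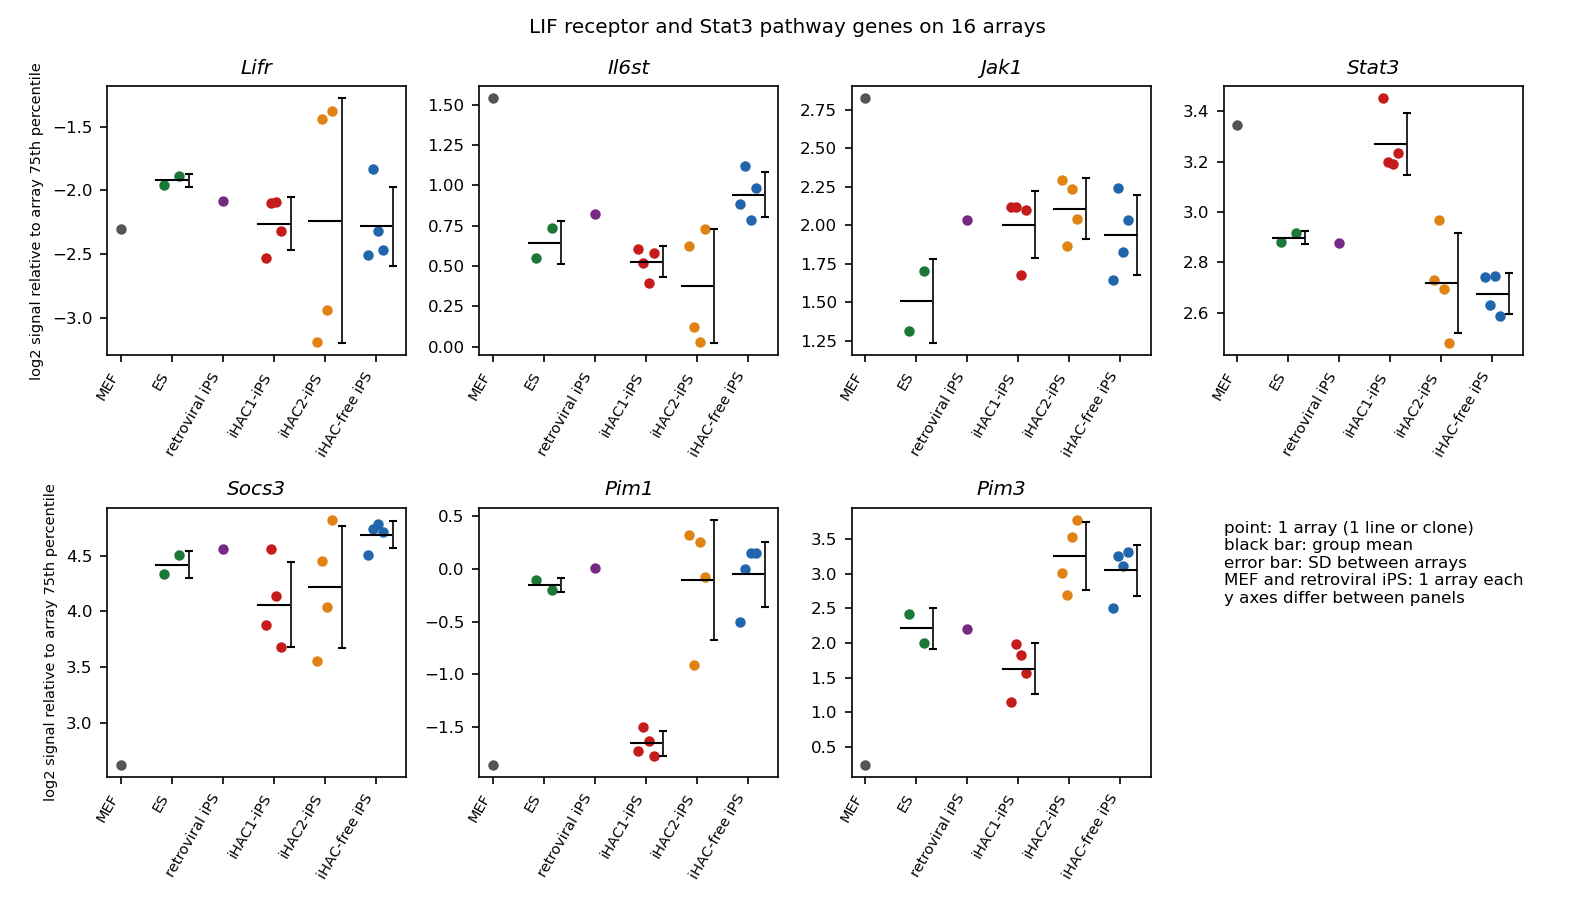
Level of 1 probe for each gene (base 2158 for Lifr, 4024 for Jak1 and 779 for Pim1) on each of the 16 arrays, as log2 signal relative to the 75th percentile of the array, by group, with the group mean (bar) and SD (error bar) where a group has more than 1 array. The 4 iHAC1-iPS points for Pim1, -1.77 to -1.50, lie below every ES, iHAC2-iPS and iHAC-free iPS point, and the MEF point is the highest for Il6st and Jak1 and the lowest for Socs3, Pim1 and Pim3.

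Lifr, the chain that binds LIF, was well above background on every array at 4 of its 5 probes, and differed most from ES at the far end of its transcript. At the probe starting at base 2158, the level was -1.96 in B6ES and -1.88 in TT2. It was -2.53, -2.10, -2.09 and -2.32 in the iHAC1-iPS clones. It was -3.19, -1.44, -2.94 and -1.38 in the iHAC2-iPS clones. The iHAC2-iPS clones split at this probe, with 2-C6 and 2-N above both ES lines and 2-B1 and 2-E below every iHAC1-iPS clone. The iHAC-free iPS lines stood at -2.51, -1.83, -2.32 and -2.47, so F-C5 alone reached the ES levels. The group means of this probe were -1.92 ± 0.05 (SD, n = 2) in ES, -2.26 ± 0.21 (n = 4) in iHAC1-iPS, -2.24 ± 0.96 (n = 4) in iHAC2-iPS and -2.28 ± 0.31 (n = 4) in iHAC-free iPS. These means lie closer together than the spread among iHAC2-iPS clones, and none of the differences between groups was called.

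At the probe starting at base 2324 the iHAC2-iPS clones had -3.16, -3.17, -4.24 and -2.23, all below the ES levels of -1.84 and -1.92. The clone 1-A3, at -0.75, was far above the other iHAC1-iPS clones, at -2.52, -2.72 and -2.70. This clone did not stand out at the probe of base 2158, which reads the neighbouring stretch. The difference of iHAC2-iPS from ES was -1.32 (SE 0.57), and with an adjusted p of 0.142 it was not called. At the probes of bases 3232 and 3323 the ES levels were -2.58 and -2.61 and then -2.42 and -2.44, and all 4 iHAC-free iPS lines lay below them, at -3.52 to -3.20 and at -3.34 to -3.11. The differences of iHAC-free iPS from ES were -0.70 (SE 0.35, adjusted p = 0.287) and -0.79 (SE 0.31, adjusted p = 0.177), neither of them called. The iHAC2-iPS clones had -2.51, -2.31, -3.81 and -3.15 at base 3232 and -3.75, -2.31, -3.24 and -2.97 at base 3323. Thus 2-B1 and 2-C6 lay above both ES lines at base 3232, and 2-C6 did so at base 3323.

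The probe at base 7563, A_52_P438170, at chr15:7145390-7145449, was the only Lifr probe called. Its level was -2.98 in B6ES and -3.46 in TT2. It was -5.27, -5.05, -5.30 and -4.69 in the iHAC1-iPS clones and -6.15, -4.30, -6.60 and -4.49 in the iHAC2-iPS clones. Every clone of both groups lay below both ES lines. Only 1 of the 4 iHAC1-iPS arrays (1-D6) and 1 of the 4 iHAC2-iPS arrays (2-C6) were well above background there, so these levels rest largely on signal near the limit of detection. The 4 iHAC-free iPS lines, all well above background, had -4.18, -4.38, -4.19 and -4.50. These lines, MEFs (-4.01) and 20D17 (-4.07) were thus below both ES lines too. Against ES, the difference was -1.86 in iHAC1-iPS (SE 0.54, adjusted p = 0.0288) and -2.16 in iHAC2-iPS (SE 0.54, adjusted p = 0.0277), and both were called. In iHAC-free iPS the difference was -1.09 (SE 0.54, adjusted p = 0.273). With another background correction, normexp, the differences shrank to -0.49 in iHAC1-iPS and -0.63 in iHAC2-iPS and missed the 2-fold minimum, so the size of the difference depends on how background is handled. In iHAC1-iPS the call was also lost with quantile scaling (adjusted p = 0.0571), with slide as a block (difference -1.47, adjusted p = 0.296) and without B6ES, TT2, 1-A3 or 1-C3, and the lowest adjusted p over the alternatives was 0.0108. In iHAC2-iPS it was also lost with only the compared groups fitted (adjusted p = 0.169) and without B6ES, TT2 or 2-B1, and the adjusted p lay between 0.00710 and 0.177.

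**Figure D2:**
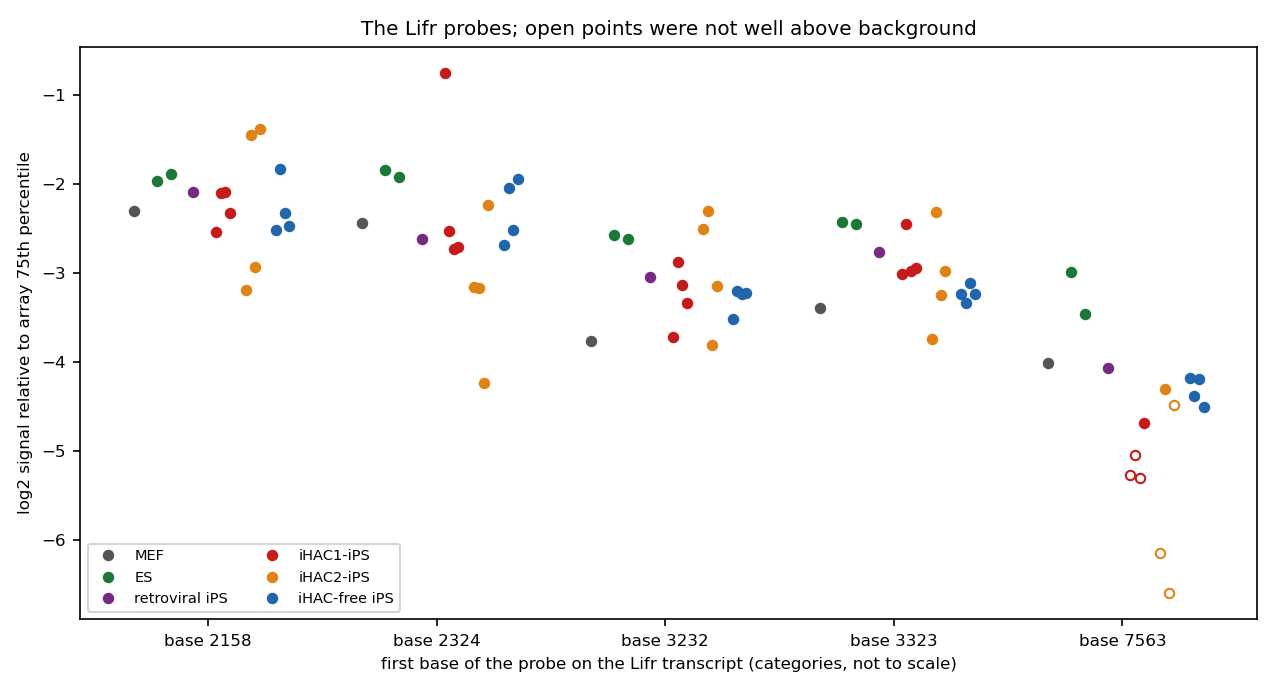
Level of each of the 5 Lifr probes (x axis, by the first base on the transcript, as categories) on the 16 arrays, as log2 signal relative to the 75th percentile of the array, coloured by group, with open points where the spot was not well above background. At base 7563, 6 of the 8 iHAC1-iPS and iHAC2-iPS points are open. All 8, and the points of every other group, lie below both ES points there, while the other 4 probes show overlapping groups or smaller gaps.

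For Lifr the fitted difference from ES was below 0 at all 5 probes in each of the 3 iPS groups, under the other background correction and the quantile scaling too. These 3 comparisons share the 2 ES arrays, and the 5 probes read RNA of the same gene on the same arrays. Only the differences at the distal probe in iHAC1-iPS and iHAC2-iPS were called, and single clones lay above both ES lines at other probes. The differences ran from -1.86 to -0.30 in iHAC1-iPS, from -2.16 to -0.32 in iHAC2-iPS and from -1.09 to -0.36 in iHAC-free iPS. The smallest of those in iHAC2-iPS, at base 2158, came to 0.0021 without 2-B1.

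Il6st, the chain that LIF shares with interleukin 6 and related cytokines, differed little between the stem cell groups. Its probe reads base 4969 of the transcript, at chr13:113296586-113296645. The level was 0.55 in B6ES and 0.74 in TT2, and 0.61, 0.52, 0.39 and 0.58 in the iHAC1-iPS clones. It was 0.63, 0.12, 0.03 and 0.73 in the iHAC2-iPS clones and 0.88, 1.12, 0.79 and 0.98 in the iHAC-free iPS lines. The iHAC-free iPS lines were above every ES line and every iHAC1-iPS and iHAC2-iPS clone. Each clone was also below the line derived from it, with differences of -0.26, -1.0, -0.76 and -0.25. The group difference between iHAC2-iPS and iHAC-free iPS was -0.57 (SE 0.17, adjusted p = 0.123) and was not called, and its adjusted p lay between 0.0339 and 0.257 over the alternatives, with less than a 2-fold difference in each. Within the slides it was -0.25 on 1 and -0.88 on the other. MEFs had the highest level of all, 1.54.

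Jak1, the kinase bound to Il6st, was read by 2 probes on its own strand, at bases 4024 and 4724 and gave like differences. At base 4024 the level was 1.32 in B6ES and 1.70 in TT2. It was 2.12, 2.12, 1.68 and 2.10 in the iHAC1-iPS clones, 2.29, 1.86, 2.24 and 2.04 in the iHAC2-iPS clones and 1.64, 2.24, 1.82 and 2.04 in the iHAC-free iPS lines. All iHAC2-iPS clones were above both ES lines, and in each of the other groups 1 sample lay between them. The differences from ES at this probe were 0.49 (SE 0.21, adjusted p = 0.120) in iHAC1-iPS, 0.60 (SE 0.21, adjusted p = 0.0835) in iHAC2-iPS and 0.43 (SE 0.21, adjusted p = 0.279) in iHAC-free iPS. At base 4724 they were 0.49, 0.64 and 0.38, and none of the 6 was called. The MEF level was 2.82 at base 4024 and 2.60 at base 4724, above all 14 ES, iHAC1-iPS, iHAC2-iPS and iHAC-free iPS arrays at both. In the order of groups at base 4024, MEFs were followed by iHAC2-iPS (2.11 ± 0.19), 20D17 (2.03), iHAC1-iPS (2.00 ± 0.22), iHAC-free iPS (1.94 ± 0.26) and ES (1.51 ± 0.27), and none of the pairs of neighbours among the replicated groups was called different. The probe on the opposite strand of Jak1 gave -2.51 in 2-B1 and -1.80 in F-C5 and between -5.74 and -4.31 on the other 14 arrays.

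Stat3 was higher in the iHAC1-iPS clones than in the other stem cell groups, by less than 2-fold. Its probe lies at chr11:100749598-100749657 and is spotted 10 times on each array, and the spots were averaged. The level was 2.88 in B6ES, 2.92 in TT2 and 2.88 in 20D17. It was 3.45, 3.20, 3.19 and 3.23 in the iHAC1-iPS clones. It was 2.73, 2.97, 2.69 and 2.48 in the iHAC2-iPS clones and 2.74, 2.63, 2.75 and 2.58 in the iHAC-free iPS lines. All 4 iHAC1-iPS clones were above every other stem cell array, and MEFs, at 3.35, were within their range. Stat3 in iHAC1-iPS was 1.47-fold higher than in iHAC2-iPS (difference 0.55, SE 0.13, adjusted p = 0.00575) and 1.51-fold higher than in iHAC-free iPS (0.59, SE 0.13, adjusted p = 0.00338). Both differences passed the adjusted p of 0.05 and missed the 2-fold minimum under each of 14 alternative settings, not counting the block for slide. Both compare arrays of different slides and scan sessions, which no setting can take out. Within the first session, iHAC1-iPS exceeded ES by 0.37 (SE 0.15, adjusted p = 0.108), which was not called. On the slide that holds both groups, 1-D6 exceeded the mean of the ES lines by 0.34. The mean level of the fibroblast markers was also higher in each iHAC1-iPS clone than in either ES line, but not than in every iHAC2-iPS or iHAC-free iPS sample. The part of that in the Stat3 level was not tested.

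Socs3, the feedback inhibitor that binds the receptor, was lower in MEFs than in all stem cells. The level was 2.62 in MEFs, 4.34 in B6ES, 4.51 in TT2 and 4.56 in 20D17. It was 3.88, 4.56, 4.14 and 3.68 in the iHAC1-iPS clones and 3.55, 4.46, 4.04 and 4.82 in the iHAC2-iPS clones. It was 4.51, 4.74, 4.79 and 4.72 in the iHAC-free iPS lines. The iHAC-free iPS lines were above both ES lines and tightly grouped (4.69 ± 0.12, n = 4), while the iHAC1-iPS clones (4.06 ± 0.38, n = 4) and the iHAC2-iPS clones (4.22 ± 0.55, n = 4) spread over a wider range that took in the ES levels. The largest group difference was that of iHAC1-iPS from iHAC-free iPS, -0.63 (SE 0.26, adjusted p = 0.0737), and no comparison of Socs3 was called. In 3 of the 4 pairs the iHAC2-iPS clone had less Socs3 than the iHAC-free line derived from it, with differences of -0.96 in 2-B1, -0.28 in 2-C6 and -0.74 in 2-E, and in 2-N the difference was 0.11.

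Pim1 and Pim3, kinases of the same family, were both lower in the iHAC1-iPS clones than in iHAC2-iPS and iHAC-free iPS. For Pim1, read at base 779 on its own strand, the level was -0.11 in B6ES and -0.20 in TT2. It was -1.73, -1.50, -1.63 and -1.77 in the iHAC1-iPS clones, close to the MEF level of -1.86. It was 0.32, -0.92, 0.25 and -0.08 in the iHAC2-iPS clones, and between -0.50 and 0.15 in the iHAC-free iPS lines. The 4 iHAC1-iPS clones lay together below all other stem cell arrays, the nearest of which was 2-C6. Against ES, Pim1 was 2.83-fold lower in iHAC1-iPS (difference -1.50, SE 0.30, adjusted p = 0.00531). It was also 2.93-fold lower than in iHAC2-iPS (-1.55, SE 0.25, adjusted p = 8.37e-04) and 3.04-fold lower than in iHAC-free iPS (-1.61, SE 0.25, adjusted p = 5.33e-04). The difference from ES lies within a scan session, and on the slide with both groups the difference of 1-D6 from the mean of the ES lines was -1.62. With slide as a block, which leaves only that clone against the ES lines, its adjusted p was 0.0603, and without B6ES it was 0.0596, the highest values over 13 alternatives, whose lowest was 0.00272. The differences of iHAC2-iPS and iHAC-free iPS from ES were 0.05 (SE 0.30) and 0.10 (SE 0.30). The probe on the opposite strand of Pim1 had a difference of -0.84 for iHAC1-iPS against iHAC-free iPS (SE 0.30, adjusted p = 0.0450, less than 2-fold), but with the normexp correction that difference was 0.03.

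For Pim3, read at base 1888, at chr15:88695626-88695685, the level was 2.42 in B6ES, 2.00 in TT2 and 2.20 in 20D17. It was 1.14, 1.98, 1.83 and 1.56 in the iHAC1-iPS clones. It was 3.0, 2.69, 3.52 and 3.78 in the iHAC2-iPS clones and 2.51, 3.26, 3.12 and 3.32 in the iHAC-free iPS lines. The levels fell into 3 ranges that did not overlap, with the iHAC1-iPS clones lowest, the ES lines between and the iHAC2-iPS and iHAC-free iPS samples, which overlapped each other, highest. The lower 2 ranges nearly met, at 1.98 in 1-B and 2.00 in TT2. The highest range held all arrays of the second scan session, and every array of the first session lay below it. MEFs, at 0.25, were below all other samples. Pim3 in iHAC1-iPS was 3.07-fold lower than in iHAC2-iPS (difference -1.62, SE 0.27, adjusted p = 0.00113) and 2.68-fold lower than in iHAC-free iPS (-1.42, SE 0.27, adjusted p = 0.00198). Both compare arrays of different scan sessions, so group and session cannot be told apart in them. The differences from ES were -0.58 (SE 0.34, adjusted p = 0.245) in iHAC1-iPS, 1.04 (SE 0.34, adjusted p = 0.0635) in iHAC2-iPS and 0.84 (SE 0.34, adjusted p = 0.189) in iHAC-free iPS, none of them called. In iHAC2-iPS the call against ES was made with the normexp correction, with either other filter and without 2-C6, and over all alternatives its adjusted p lay between 0.0229 and 0.304. These groups share no slide, so a random block for slide, under which the call was also made, cannot take slide or session out of the difference.

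**Figure D3:**
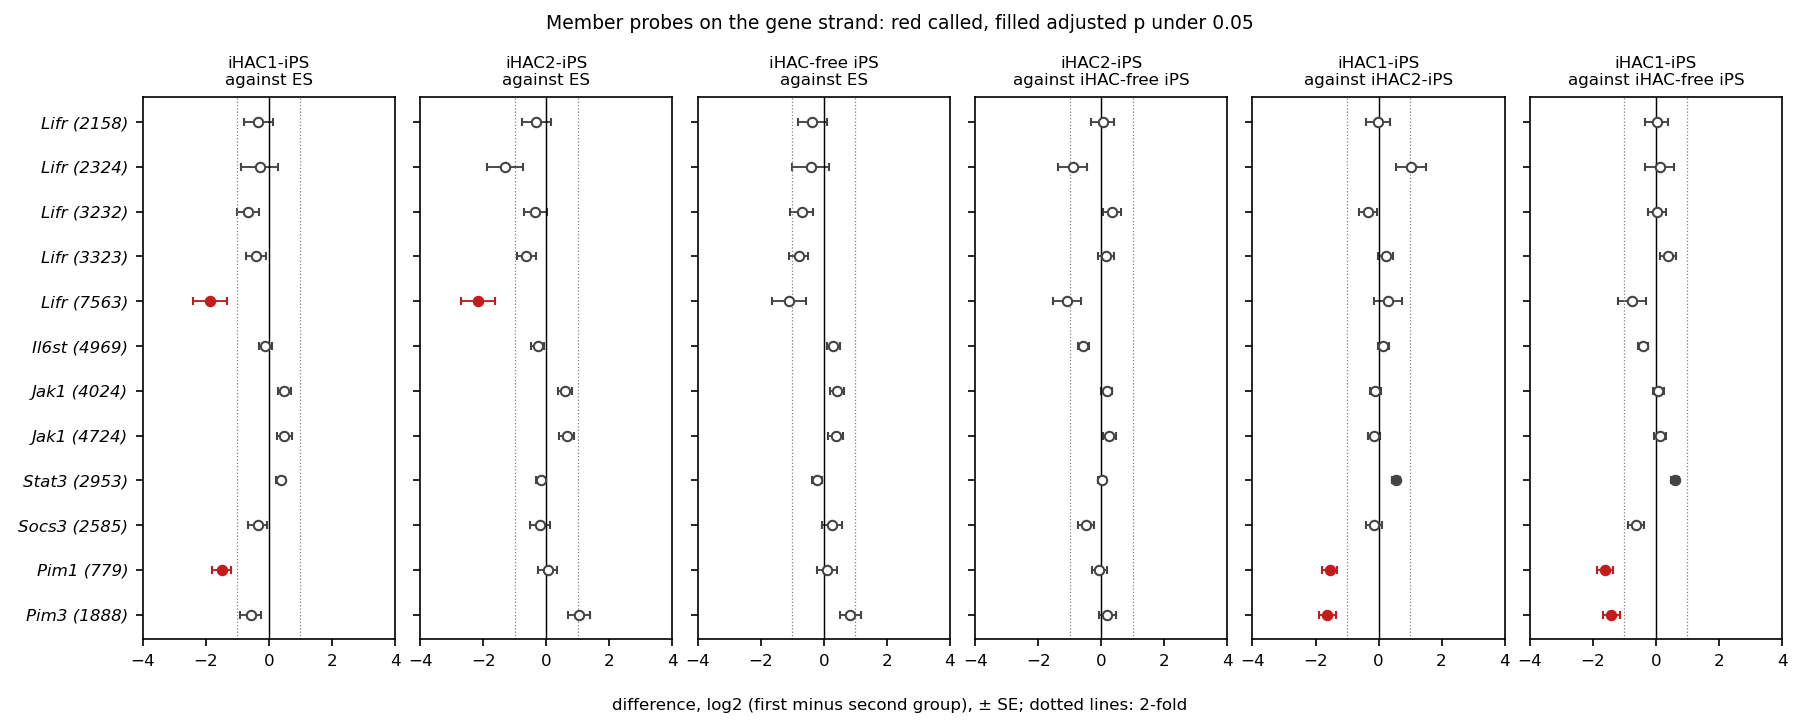
Fitted difference between groups (log2, first minus second group, with its SE) for the 12 member probes on the strand of their gene, labelled with the first base on the transcript, in 6 comparisons. Filled points have an adjusted p under 0.05 and red points are also at least 2-fold. Red points are the Lifr probe of base 7563 in iHAC1-iPS and iHAC2-iPS against ES, Pim1 in iHAC1-iPS against each of the 3 other groups, and Pim3 in iHAC1-iPS against iHAC2-iPS and iHAC-free iPS.

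Calls needed an adjusted p under 0.05, over all 31415 probes tested, together with a difference of at least 2-fold. For iHAC1-iPS against ES, 2 of 14 were called, both lower (Pim1 and the distal Lifr probe), where 14.3% of all tested probes were called. For iHAC2-iPS against ES it was 1 of 14, the distal Lifr probe, beside 6.73%. That share is 2113 probes, and it fell to 20 probes with only these groups fitted, 370 without B6ES and 333 without TT2. For iHAC-free iPS against ES limma called none of 14, beside 0.366%, and 2 had an unadjusted p under 0.05 (the Lifr probe of base 3323 and Pim3). For iHAC2-iPS against iHAC-free iPS it also called none, beside 0.770%, and 2 had an unadjusted p under 0.05 (Il6st and the distal Lifr probe). For iHAC1-iPS against iHAC2-iPS and against iHAC-free iPS it was 2 of 14 in each, Pim1 and Pim3, beside 20.0% and 20.1%. The shares of the member probes called were thus close to those of all probes or below them in each comparison. Groups did not overlap at 8 of 14 probes for iHAC1-iPS against ES (47.9% of all tested), 5 for iHAC2-iPS against ES (37.2%) and 8 for iHAC-free iPS against ES (44.1%). It was 1 for iHAC2-iPS against iHAC-free iPS (11.5%), 3 for iHAC1-iPS against iHAC2-iPS (32.7%) and 6 for iHAC1-iPS against iHAC-free iPS (44.0%).

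The rest of the pathway was followed through 60 listed genes, with 1 probe for each, of which 59 were tested, while Lif itself was not matched to a probe by its symbol. In iHAC1-iPS against ES, 2 were called higher and 7 lower, where 6.88% and 7.39% of all tested probes were. Their median difference was -0.30, beside 0.02 over all tested probes. Of 16 known targets of Stat3, 4 were lower and 1 was higher, and their median difference was -0.50. Tfcp2l1, a transcription factor that holds the naive state, was 2.98 in B6ES and 3.25 in TT2 and -3.59, -2.92, -1.78 and -3.47 in the iHAC1-iPS clones, a difference of -6.05 (SE 0.74, adjusted p = 3.14e-04). Klf5 was 2.85 and 2.98 in the ES lines and -1.26, -0.67, -0.11 and -1.50 in these clones, a difference of -3.80 (SE 0.55, adjusted p = 8.53e-04). Klf4 was 5.04 and 5.76 in the ES lines and 2.15, 2.09, 2.13 and 2.90 in these clones, a difference of -3.08 (SE 0.56, adjusted p = 0.00291). The groups were far apart at all 3 genes. Bcl3, a partner of NF-kappa B, was also lower (-1.01, adjusted p = 0.0324). Myc was higher, at 6.19 ± 0.43 against 1.48 ± 0.08 (difference 4.71, adjusted p = 1.11e-04). The vectors carry Klf4 and c-Myc cDNAs, and whether these 2 probes read the vector's copies was not tested. Gbx2 did not pass (difference -1.27, SE 1.16, adjusted p = 0.480).

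Among the other lists in that comparison, Gab1, the adaptor that links the receptor to the MAP kinase arm, was 1.97 and 1.24 in the ES lines and -1.80, -1.74, -2.66 and -2.39 in the iHAC1-iPS clones. The difference was -3.75 (SE 0.60, adjusted p = 0.00157), and the other 9 genes of that arm were not called. Of 9 other kinases and Stat factors, Stat4 (-3.71, adjusted p = 0.00867) and Stat6 (-1.20, adjusted p = 0.00469) were lower and Stat5b (1.04, adjusted p = 0.00448) was higher. Stat4 was well above background in 2 of the 4 iHAC1-iPS clones. None of 6 ligands, 4 receptors or 14 negative regulators was called. Osmr, the receptor chain for oncostatin M, was -1.59 and -0.14 in the ES lines and 1.01, 1.15, 0.13 and 1.45 in the iHAC1-iPS clones (difference 1.79, SE 0.70, adjusted p = 0.0875). It was 2.22 in MEFs, the highest of all arrays.

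In iHAC2-iPS against ES, 2 of 59 genes were called higher and 3 lower, where 3.45% and 3.27% of all tested probes were. Myc was higher by 2.70 (SE 0.48, adjusted p = 0.00891) and Stat5a by 1.71 (SE 0.47, adjusted p = 0.0372). Gab1 was lower (-2.47, SE 0.60, adjusted p = 0.0264), as were Klf4 (-2.33, SE 0.56, adjusted p = 0.0252) and Il11, an interleukin that signals through Il6st (-1.23, SE 0.29, adjusted p = 0.0238). The clones differed: Gab1 was -1.66, -1.40 and -1.41 in 2-B1, 2-C6 and 2-E and 1.02 in 2-N, and Klf4 was 3.16, 2.31 and 2.14 in the same 3 and 4.65 in 2-N. Tfcp2l1 and Klf5 were likewise highest in 2-N, at 4.03 and 3.16, against 0.66 to 1.73 and 0.63 to 1.67 in the other 3, and were not called (-1.19, adjusted p = 0.291, and -1.24, adjusted p = 0.148). Gbx2 was not well above background in 2-B1 and 2-E, and its difference of -3.02 (SE 1.16) had an adjusted p of 0.102. When only the 2 compared groups were fitted, or without TT2, none of the 59 was called. Without B6ES it was 1, without 2-E it was 3, without 2-C6 it was 8 and without 2-N it was 10.

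In iHAC-free iPS against ES none of the 59 genes was called by limma, where 0.172% of all tested probes were called higher and 0.194% lower, and 9 had an unadjusted p under 0.05. Their differences for Tfcp2l1, Klf5, Klf4 and Gab1 were 0.16 (SE 0.74), 0.05 (SE 0.55), 0.28 (SE 0.56) and -0.34 (SE 0.60), with limma's adjusted p between 0.783 and 0.965.

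**Figure D4:**
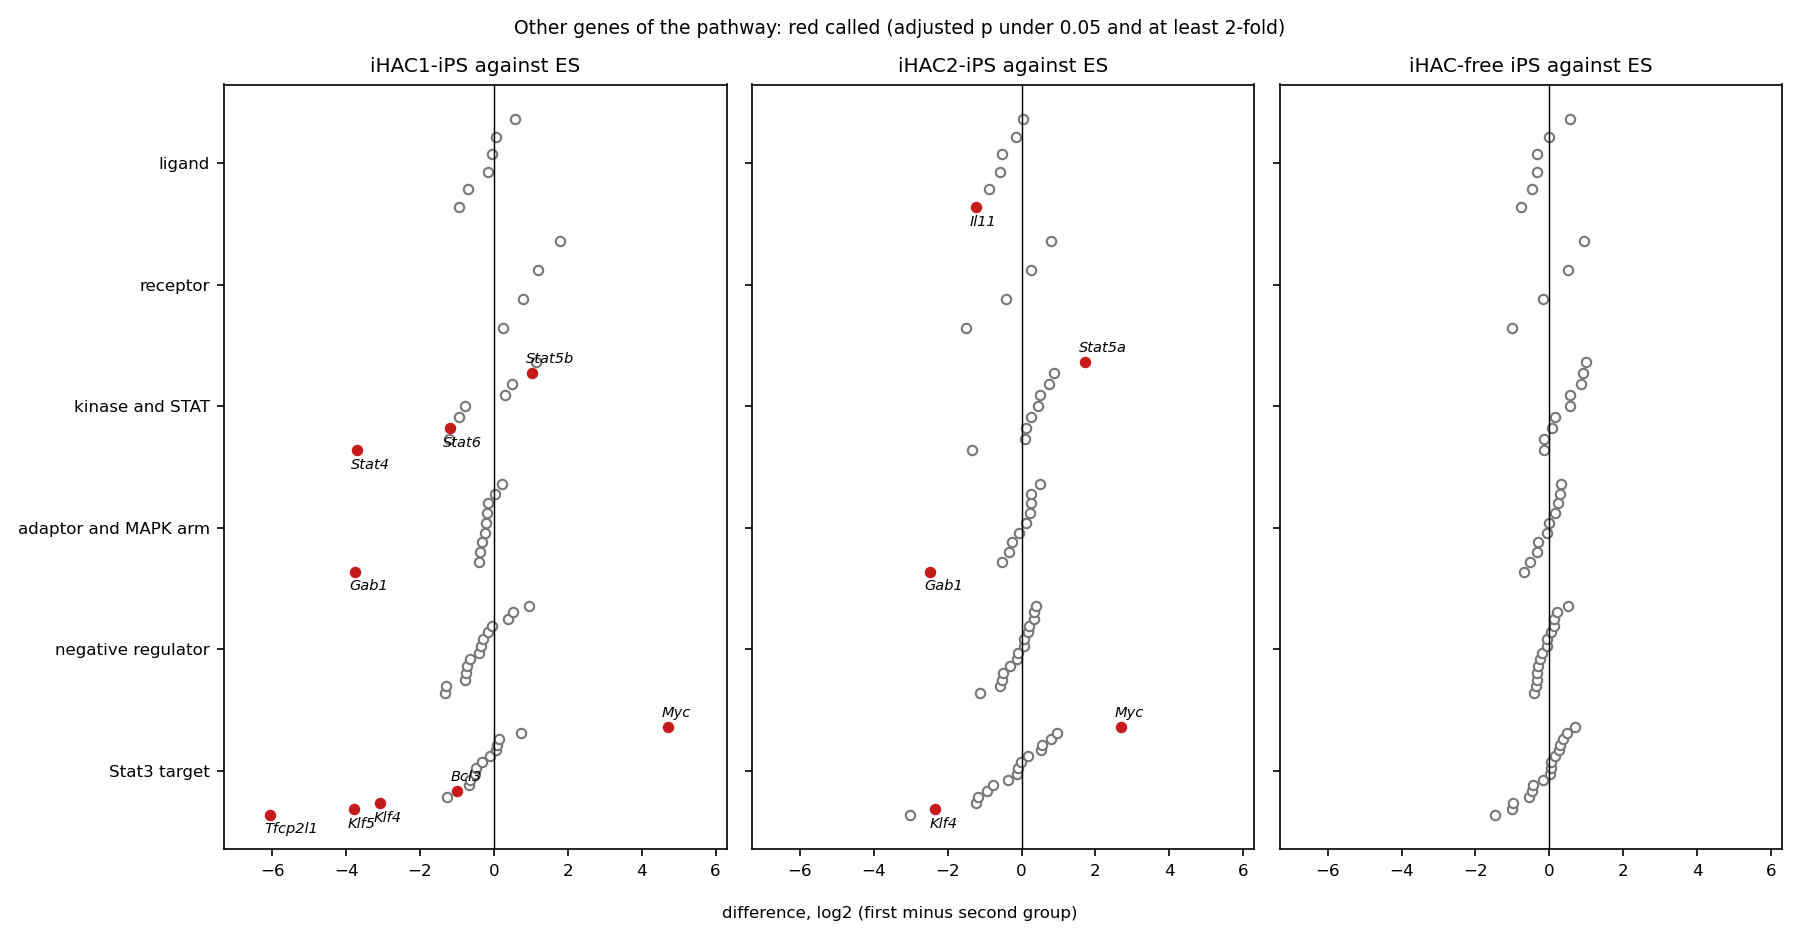
Fitted differences from ES (log2) of the 59 other genes of the pathway in iHAC1-iPS, iHAC2-iPS and iHAC-free iPS, 1 point a gene, grouped by role (rows) and ordered by size within a role, with called genes in red and named. There are 9 red points in iHAC1-iPS, 5 in iHAC2-iPS and 0 in iHAC-free iPS.

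Between the iHAC2-iPS clones and the lines without the vector, 2 Stat3 targets, Klf4 and Myc, differed, while no member was called. The vector carries Klf4 and c-Myc cDNAs, and the lines had lost it. Whether the probes of these 2 genes read the vector's copies was not tested. Of the 59 genes, 1 was called higher and 1 lower in iHAC2-iPS against iHAC-free iPS, beside 0.216% and 0.554% of all tested probes. Klf4 was 3.16, 2.31, 2.14 and 4.65 in the clones and 5.97, 5.78, 5.40 and 5.55 in the lines derived from them, a difference of -2.61 (SE 0.46, adjusted p = 0.0254). Myc was 3.67, 5.60, 3.52 and 3.93 in the clones and between -0.38 and 0.26 in the lines, a difference of 4.16 (SE 0.39, adjusted p = 0.00134). Each line differed from its own clone in the same direction at both genes. Without 2-E, without any 1 of the iHAC-free iPS lines or with only these groups fitted, 1 of the 59 genes was called, higher in the clones, and without 2-N it was 5. The iHAC-free iPS level of Myc was also below that of the ES lines, 1.53 and 1.42. That difference was not called, and it lies across scan sessions. Among the members, Pim1 and Pim3 changed in no common direction between clone and line. Pim1 was higher in 2-B1 and 2-E than in their lines and lower in 2-C6 and 2-N, and Pim3 was higher in 3 of the 4 clones.

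**Figure D5:**
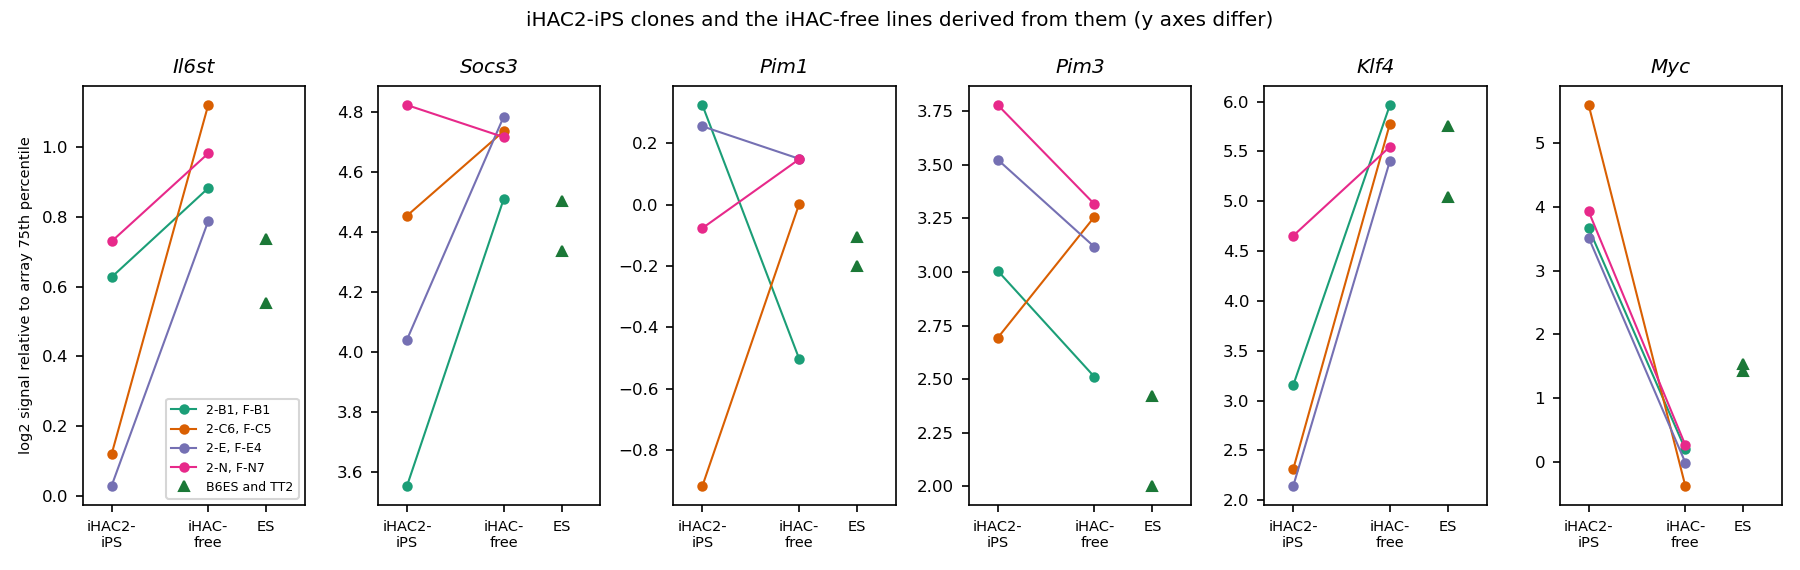
Level (log2 signal relative to the 75th percentile of the array) of 4 member genes and of Klf4 and Myc in each iHAC2-iPS clone and in the iHAC-free iPS line derived from it, joined by a line, with the ES lines B6ES and TT2 as triangles. Il6st and Klf4 are higher and Myc is lower in all 4 derived lines, and Socs3 is higher in 3 of them. The vector that the derived lines lost carries Klf4 and c-Myc cDNAs.

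The iHAC1-iPS clones were also compared with the groups scanned in the other session. There were 3 higher and 9 lower of 59 against iHAC2-iPS (8.68% and 11.3% of all tested probes), and 3 higher and 10 lower against iHAC-free iPS (8.85% and 11.2%). Tfcp2l1 was lower in both comparisons, with differences of -4.87 and -6.21 (SE 0.60 in each), as was Klf5, with -2.56 and -3.85 (SE 0.45 in each), and Stat4, with -2.36 and -3.56 (SE 0.68 in each). Klf4 was lower than in iHAC-free iPS, with a difference of -3.36 (SE 0.46). The increases were Cntfr, the receptor chain for ciliary neurotrophic factor (2.71 and 2.20, SE 0.43 in each), Myc (2.01 and 6.17, SE 0.39 in each), and Socs5 against iHAC2-iPS (1.05, SE 0.31) or Socs4 against iHAC-free iPS (1.01, SE 0.15), inhibitors of the same family as Socs3. Cntfr was -0.17, 0.43, 1.06 and 0.29 in the iHAC1-iPS clones, above all iHAC2-iPS clones (-3.05 to -1.19) and iHAC-free iPS lines (-2.31 to -1.15), and above B6ES (-1.29) and TT2 (-0.30). All these differences had an adjusted p of 0.0189 or less.

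MEFs and 20D17, with 1 array each, are set beside the 14 ES, iHAC1-iPS, iHAC2-iPS and iHAC-free iPS arrays with no test. In MEFs the receptor chain Il6st and Jak1 at both probes on its strand were above all 14. Stat3 was above 13 of the 14. Socs3, Pim1 and Pim3, the induced genes, were below all 14, with differences of -1.80, -1.70 and -1.97 from the mean of the ES lines. No LIF is named for the MEF medium, so medium and cell type cannot be told apart in the MEF values. The retroviral iPS line 20D17 lay within the range of the 14 arrays at all 14 probes. It was within 0.18 of the ES mean for Il6st, Stat3, Socs3, Pim3 and Pim1 on its strand. It was 0.52 and 0.66 above that mean for Jak1 at bases 4024 and 4724, and below it at all 5 Lifr probes, with differences of -0.16, -0.73, -0.45, -0.33 and -0.85 in the order of their bases.

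For each member, the probes with the most similar profile over the 16 arrays were found by the root mean square (RMS) difference of levels, each profile centred on its mean, among 19937 probes well above background on all arrays. For Pim1, whose level had an SD of 0.83 over the arrays, they were Blvrb (RMS 0.24), Tpd52 (0.26) and Plekhg5 (0.26). For Pim3 (SD 0.94) the nearest was Ccdc77 (0.21), then 2700097O09Rik (0.23) and Shld2 (0.23). For Stat3 (SD 0.29) they were Eps15, Inpp5e and Ccdc32, at 0.10 to 0.11, and for Socs3 (SD 0.58) Ctbp2, Ngrn and Xpo4, at 0.21 to 0.23. For Il6st (SD 0.36) they were Tmem120a (0.14), Mylip (0.18) and Gdf7 (0.20), for Jak1 (SD 0.34) Pqlc3 (0.13), Fuca1 (0.13) and Npdc1 (0.14), and for Lifr at base 2158 (SD 0.48) Gtf2h1, Poglut1 and Ap3m2, at 0.26 to 0.28. No member was among the nearest of another. The arrays share cell lines, feeders and scan sessions, and without the MEF array at least 1 of the 3 nearest was replaced for each member.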

How the data were processed

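RNA of 16 samples was hybridized to Agilent 1-colour arrays, 1 array a sample. The deposited scanner files hold processed signals, as intensity on a linear scale, that the authors extracted with Agilent Feature Extraction 10.7.1.1 or 10.7.3.1, the version differing between scan sessions. The deposited value table holds log2 values that the authors normalized in GeneSpring GX 11, and was used as an alternative. Here, processed signals were averaged over the unflagged spots of a probe on the linear scale. The log2 of that mean, minus the log2 of the 75th percentile of the array, was used. Probes well above background on at least 1 array were tested with limma 3.58.1 in R 4.3.3, in 1 fit over 6 groups, with Benjamini-Hochberg adjustment over 31415 probes. A call needed an adjusted p under 0.05 and a 2-fold difference. Alternatives were normexp with an offset of 50, quantile scaling, the deposited table, other filters, no fold minimum, slide as a block (fixed where a slide holds both groups, otherwise random), only the compared groups, each array left out and a block for the clone of origin. Tables and figures were made with Python 3.11.15, numpy 2.4.6, pandas 2.3.3 and matplotlib 3.10.9.

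The members and gene lists were chosen with earlier results of these data known. Of the other pathway genes, those named were the up to 3 largest called increases and decreases of a comparison and Osmr, Klf4, Tfcp2l1, Gbx2 and Klf5. Bcl3, Stat4 and Stat6 in iHAC1-iPS against ES, and Gab1, Klf5 and Tfcp2l1 by clone, were named after their values were seen. Nearest profiles were taken by RMS difference. Clones and the lines sorted from them are paired by clone of origin, as the same cell line. The correlation of their deviations from the group means was -0.219 to 0.0799 for pairs of the same origin and -0.105 to 0.216 for other pairs. As each replicate is 1 array of 1 clone or line, p-values rest on the spread between lines. That spread is pooled over all groups with more than 1 array, and is not that of the compared groups alone. For Lifr at base 3323, iHAC-free iPS against ES had an SE of 0.31, beside SDs of 0.014 in ES, 0.095 in iHAC-free iPS and 0.60 in iHAC2-iPS. With only the compared groups fitted, no member probe was called in that comparison either. The number of arrays limits the precision. Probe positions are on mm9, per the file headers, and promoter windows are RefSeq's on GRCm38.p6.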

Additional observations from a re-analysis of the deposited data

Results flagged for a closer look

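In 5 of 42 groups of 4 samples (a member probe in 1 group), 1 clone or line stood farther from the others than Dixon's limit allows, where chance alone gives about 1 in 20, or 2.1 groups. For Lifr at base 2324 (A_52_P192699), the iHAC1-iPS clone 1-A3 had -0.7477 and the nearest other clone -2.5215. For Lifr at base 3323 (A_51_P113182), the iHAC1-iPS clone 1-B had -2.4444 and the nearest other -2.9453. For Lifr at base 3232 (A_52_P297113), the iHAC-free iPS line F-B1 had -3.5205 and the nearest other line -3.2323. For Jak1 at base 4024 (A_51_P256642), the iHAC1-iPS clone 1-C3 had 1.6802 and the nearest other 2.1016. For Stat3 (A_51_P201480), the iHAC1-iPS clone 1-A3 had 3.452 and the nearest other 3.2341. The 3 Lifr values came from different samples.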

How the results depend on the processing

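Of 1172 differences of member probes recomputed under the alternatives, 1106 kept their direction and side of the threshold, 14 lost a call, 7 gained one and 45 changed sign, 1 of these where the unadjusted p had been under 0.05 (the Pim1 probe of the opposite strand, iHAC1-iPS against iHAC-free iPS). Most of the 1172 were of differences that had no call to lose, and all 14 lost calls were against ES. There the distal Lifr probe kept its call under 5 of 12 alternatives in iHAC1-iPS and 7 of 12 in iHAC2-iPS. Pim1 kept its call against ES under 11 of 13 in iHAC1-iPS. The calls of Pim1 and Pim3 in iHAC1-iPS against iHAC2-iPS and iHAC-free iPS held under each of 14 alternatives, not counting slide as a block, since these groups share no slide and the block cannot take slide out of the difference. In iHAC1-iPS against ES, the 2 member probes called became 1 with normexp, 1 with quantile scaling, 1 with the strict filter, 0 with slide as a block and 0 to 2 with an array left out. In iHAC2-iPS against ES, the 1 called became 2 without a filter, 2 with slide as a random block (the same limit holds), 0 with only the compared groups and 0 to 2 with an array left out. Without a fold minimum, the 2 called in iHAC1-iPS against iHAC-free iPS became 4. Of the other pathway genes, no fold minimum gave 15 in place of 9 in iHAC1-iPS against ES, 9 in place of 5 in iHAC2-iPS against ES, 26 in place of 12 in iHAC1-iPS against iHAC2-iPS and 25 in place of 13 in iHAC1-iPS against iHAC-free iPS. With only the compared groups, 0 were called in iHAC2-iPS against ES and 1 in iHAC2-iPS against iHAC-free iPS, and leaving out an array gave 0 to 10 and 1 to 5. The clone of origin as a replicate block, for iHAC2-iPS against iHAC-free iPS, left 0 member probes and 2 pathway genes called, with 136 in place of 242 over all probes and an Il6st difference of -0.57 (limma adjusted p = 0.140), and changed no other call. The cause of these changes was not tested.

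Differences that changed sign were small or of dim probes. With normexp they were Jak1 on the opposite strand in iHAC1-iPS against ES (0.092), Pim1 on the opposite strand in iHAC2-iPS against iHAC-free iPS (0.12), and, in iHAC1-iPS against iHAC-free iPS, Jak1 at base 4024 (-0.0085), Lifr at base 7563 (0.13) and Pim1 on the opposite strand (0.035). With quantile scaling they were Jak1 on the opposite strand in iHAC2-iPS against ES (-0.031), Stat3 in iHAC2-iPS against iHAC-free iPS (-0.021) and Lifr at base 2158 in iHAC1-iPS against iHAC2-iPS (0.053). With an array left out, differences from ES ranged from -0.18 to 0.069 for Jak1 on the opposite strand in iHAC1-iPS. In iHAC2-iPS they ranged from -0.40 to 0.019 for Socs3, -0.092 to 0.32 for Pim1, -0.65 to 0.40 for Jak1 on the opposite strand and -0.60 to 0.0021 for Lifr at base 2158. In iHAC-free iPS they ranged from -0.55 to 0.21 for Pim1 and -0.053 to 1.26 for Jak1, both on the opposite strand. For iHAC2-iPS against iHAC-free iPS the ranges were -0.093 to 0.39 for Lifr at base 3323, -0.24 to 0.36 for Lifr at base 2158, -0.041 to 0.12 for Stat3, -0.20 to 0.22 for Pim1 and -1.36 to 0.14 for Jak1 on the opposite strand. For iHAC1-iPS against iHAC2-iPS they were -0.0026 to 0.48, -0.10 to 0.67 and -0.34 to 0.26 for Lifr at bases 3323, 7563 and 2158, -0.19 to 0.0043 for Jak1 at base 4024, -0.49 to 0.56 for Jak1 on the opposite strand and -0.38 to 0.045 for Socs3. For iHAC1-iPS against iHAC-free iPS they were -0.030 to 0.18 for Jak1 at base 4024 and -0.36 to 0.30, -0.10 to 0.18 and -0.053 to 0.17 for Lifr at bases 2324, 3232 and 2158. Signal over background limits the Lifr probe of base 7563, which the strict filter left untested.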
